A study of Mus musculus with 16 samples.

Results

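The paraoxonase genes Pon1, Pon2 and Pon3 were followed in the lungs of 16 female C57BL/6N mice. All probes annotated with 1 of these 3 symbols were taken, which gave 5 of the 25697 probes on the array, 1 for Pon1, 1 for Pon2 and 3 for Pon3, and 3 of the 16593 genes with a probe. The family was chosen by measured values of these same data, the lower Pon1 intensity of challenged than of untreated wild type lungs. Values from that comparison are therefore described and not tested for any member, and neither is Pon1 in a comparison that uses those wild type mice. Total RNA from lung had been hybridised to an Illumina mouse bead array, with 1 array per mouse and 4 mice in each of 4 groups. Wild type untreated and Prdm11 knockout untreated mice were 22 weeks old and carry no treatment in the labels, which do not state whether they had been sensitised. Wild type challenged and Prdm11 knockout challenged mice were 35 weeks old, had been sensitised intraperitoneally with 10 µg ovalbumin (OVA) given with 2 mg alum and had then inhaled an aerosol of 1% OVA 3 times for 30 min each. Age and challenge changed together, so that their effects cannot be told apart. Prdm11 encodes a member of the PRDM family of transcriptional regulators. No probe was named Prdm11, and genotype rests on the labels, which do not describe the allele.

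Paraoxonases are calcium-dependent hydrolases of lactones and esters, named after paraoxon, the toxic oxidation product of the insecticide parathion. Pon1 encodes an enzyme that is made mainly in liver, circulates on high-density lipoprotein (HDL) and limits lipid peroxidation. Pon3 encodes a related lactonase that is also found on HDL and inside cells. Pon2 encodes an enzyme of intracellular membranes that is expressed in many tissues, the airway epithelium among them, and breaks down the lactone signals by which Pseudomonas bacteria sense their density.

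The 3 genes lie next to each other on mouse chromosome 6, in the order Pon1, Pon3, Pon2, and are read from the same strand. Since these neighbours did not move in the same direction, the 250 bases before each start are shown (RefSeq, GRCm38.p6, minus strand), at chr6:5193947-5194196 for Pon1, chr6:5256234-5256483 for Pon3 and chr6:5298341-5298590 for Pon2. Capitals mark matches on either strand to 4 motifs. The letters TATAA belong to the promoter element that places the start of transcription. The letters CCAAT are those bound by the factor NF-Y. The letters GGGCGG are those bound by Sp1, and the letters GCGTG those bound by the aryl hydrocarbon receptor with its partner.
Pon1: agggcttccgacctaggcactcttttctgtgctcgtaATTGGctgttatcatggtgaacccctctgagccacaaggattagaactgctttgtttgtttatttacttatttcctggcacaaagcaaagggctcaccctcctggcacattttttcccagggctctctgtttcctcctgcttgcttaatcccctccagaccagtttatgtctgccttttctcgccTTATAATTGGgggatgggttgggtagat
Pon3: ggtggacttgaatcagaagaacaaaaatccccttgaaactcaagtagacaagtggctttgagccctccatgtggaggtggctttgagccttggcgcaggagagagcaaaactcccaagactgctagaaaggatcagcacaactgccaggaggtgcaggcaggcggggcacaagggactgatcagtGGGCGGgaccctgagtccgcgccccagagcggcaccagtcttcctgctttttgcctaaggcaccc
Pon2: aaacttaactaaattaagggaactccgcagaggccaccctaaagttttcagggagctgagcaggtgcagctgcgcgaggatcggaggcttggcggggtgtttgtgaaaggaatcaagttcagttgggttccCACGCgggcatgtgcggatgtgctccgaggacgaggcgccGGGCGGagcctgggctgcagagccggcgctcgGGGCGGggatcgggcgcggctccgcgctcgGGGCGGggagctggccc
The Pon1 window held TATAA on both strands in 1 overlapping block, which also overlaps 1 of its 2 CCAAT matches. The Pon3 window held 1 GGGCGG. The Pon2 window held 3 GGGCGG and 1 GCGTG. Of 32851 promoter windows of the same length in the table, 22.8% held TATAA, 33.8% CCAAT, 32.7% GGGCGG and 28.2% GCGTG. The windows differed in base composition, with 3 CG dinucleotides and 47.6% G or C for Pon1, 6 and 56.8% for Pon3, and 24 and 65.6% for Pon2, against medians of 6 and 52.4% over all windows. These matches describe the letters and do not show binding.

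The arrays had nearly the same distribution of values, with median intensities of 85.4 to 86.5. A probe was tested where it lay above the 40th percentile of its array on at least 4 arrays, which held for 17810 probes and for all 5 member probes. Challenged wild type replicate 4 stood apart, with correlations to the other arrays of 0.751 to 0.884, while the lowest correlation between any 2 other arrays was 0.910. Of 16 listed lung genes, all had at least 1 probe above the 40th percentile on some arrays, and surfactant protein C (Sftpc) lay at or above percentile 99.4 of every array. The labels name separate mice, and the number of arrays limits the precision.

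Pon1 was lower in every challenged lung than in any untreated lung. In untreated wild type mice the Pon1 probe (ILMN_2676379) read 1043.4, 984.9, 1029.4 and 824.6 intensity units in replicates 1 to 4. In untreated knockout mice it read 869.1, 660.6, 744.9 and 794.8. The challenged wild type mice stood at 191.7, 293.7, 277.0 and 111.0, and the challenged knockout mice at 180.4, 225.7, 339.8 and 120.5. The untreated groups overlapped each other, as did the challenged groups, and the lowest untreated mouse lay well above the highest challenged one. Even the dimmest challenged array, wild type replicate 4, was above its array's 40th percentile for Pon1, at percentile 64.6. The 40th percentile served as a filter and is not a limit of detection, which was not examined.

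**Figure D1:**
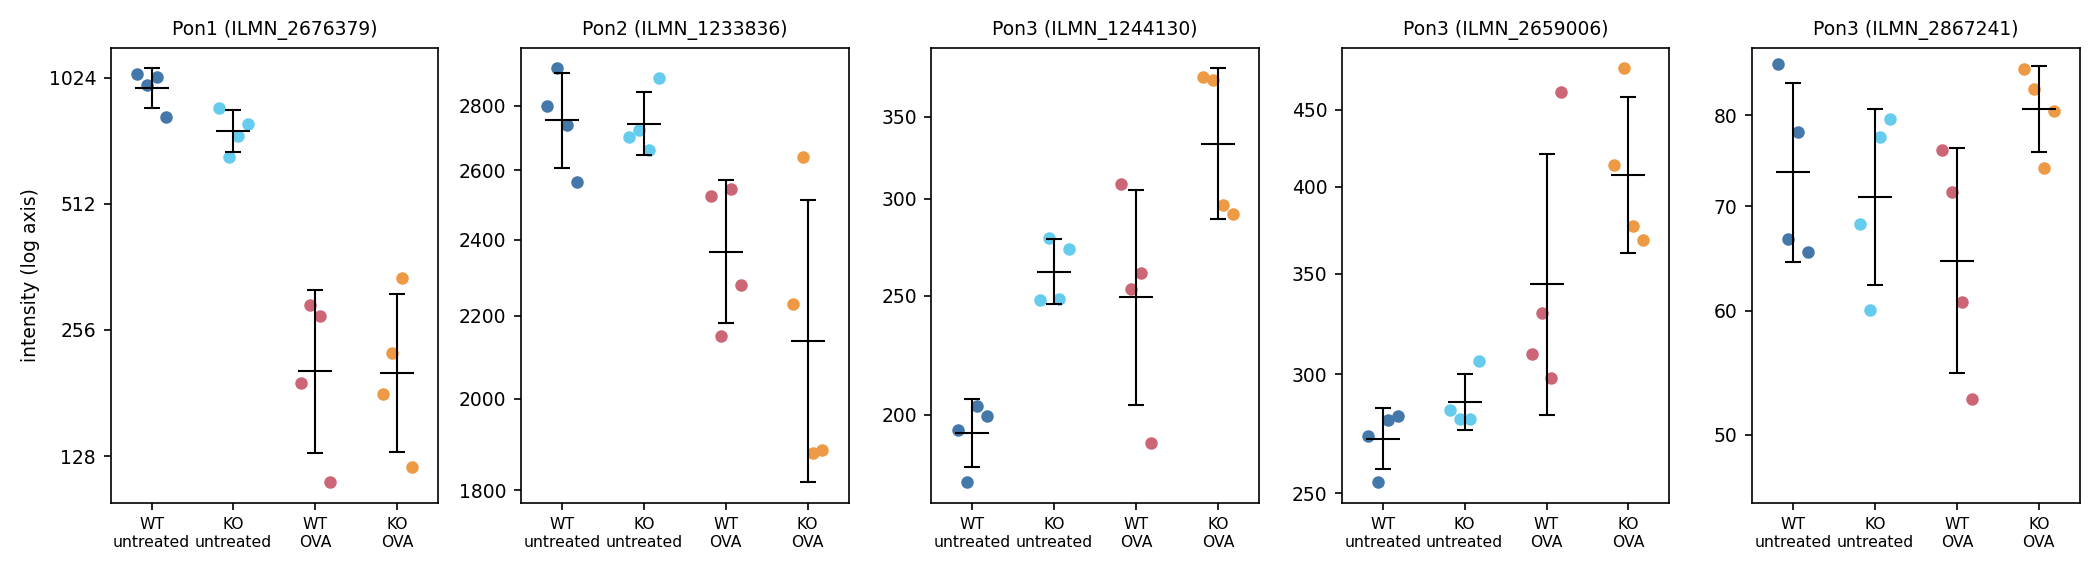
Intensity of the 5 paraoxonase probes in each mouse (log axis, points), with the geometric mean and SD on the log2 scale of the 4 mice per group (bars). WT is wild type, KO is Prdm11 knockout and OVA is challenged; Pon1 lies between 660.6 and 1043.4 in untreated and between 111.0 and 339.8 in challenged lungs, and the shifts of Pon2 and Pon3 are smaller.

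The knockout mice, which had no part in choosing the family, allow a test of challenge. Mean log2 intensity of Pon1 was 9.58 ± 0.17 (SD, n = 4) in untreated and 7.66 ± 0.62 (SD, n = 4) in challenged knockout lungs. The change was -1.92 ± 0.30 (log2 ± SE; limma, adjusted p = 0.000459), or 3.78-fold lower, with 16 of 16 pairs of mice in that direction. By size it ranked 86 among the 17810 probes. The exact two-sided permutation p was 0.0286, the smallest that 4 mice against 4 allow. Over all tested probes, 7.48% were called lower in this comparison and 9.1% higher, 18.6% were lower without overlap, and the median change was -0.05. These shares depend on the fit. Here 1333 probes were called lower and 1621 higher, and higher calls also led in most other fits. Among those were cyclic loess between arrays (1232 lower and 1980 higher) and each fit without 1 array except that without challenged wild type replicate 4. Lower calls led in that fit (2849 lower and 2575 higher) and with the 8 knockout arrays alone (3098 and 2720). They also led with array weights (3888 and 3160) and with the median of chemosensory receptor probes as a covariate (2399 and 1717). A call here means a Benjamini-Hochberg adjusted p under 0.05 over all 17810 probes in a fit of all 16 arrays. In the wild type mice, the comparison that led to the choice of Pon1, the log2 level went from 9.92 ± 0.16 to 7.67 ± 0.65 (SD, n = 4 each), a difference of -2.24 ± 0.30, or 4.74-fold lower. In that comparison 29.4% of all tested probes were called, and 15.7% were lower and 10.4% higher without overlap. In a lung extract, fewer cells that express a gene and less of its RNA per cell cannot be told apart.

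Pon1 levels of the 2 genotypes overlapped with and without challenge. The knockout-minus-wild-type difference was -0.34 ± 0.30 in untreated mice, with knockout higher in 1 of 16 pairs, and -0.01 ± 0.30 in challenged mice, with knockout higher in 8 of 16. The challenged value ran from -0.31, without challenged wild type replicate 4, to 0.24, without challenged knockout replicate 4, and was -0.44 with array weights. Both use wild type mice of the comparison that chose Pon1 and are given without a test. The challenge effect in knockout minus that in wild type was 0.33 ± 0.42 (log2 ± SE), also without a test because it contains the comparison that chose Pon1. It ran from 0.034 to 0.57 in fits without 1 array, the same arrays giving the ends, and turned to -0.048 with array weights. From highest to lowest mean the groups ran wild type untreated, knockout untreated, wild type challenged and knockout challenged, and no step but the one between untreated and challenged separated the mice.

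**Figure D2:**
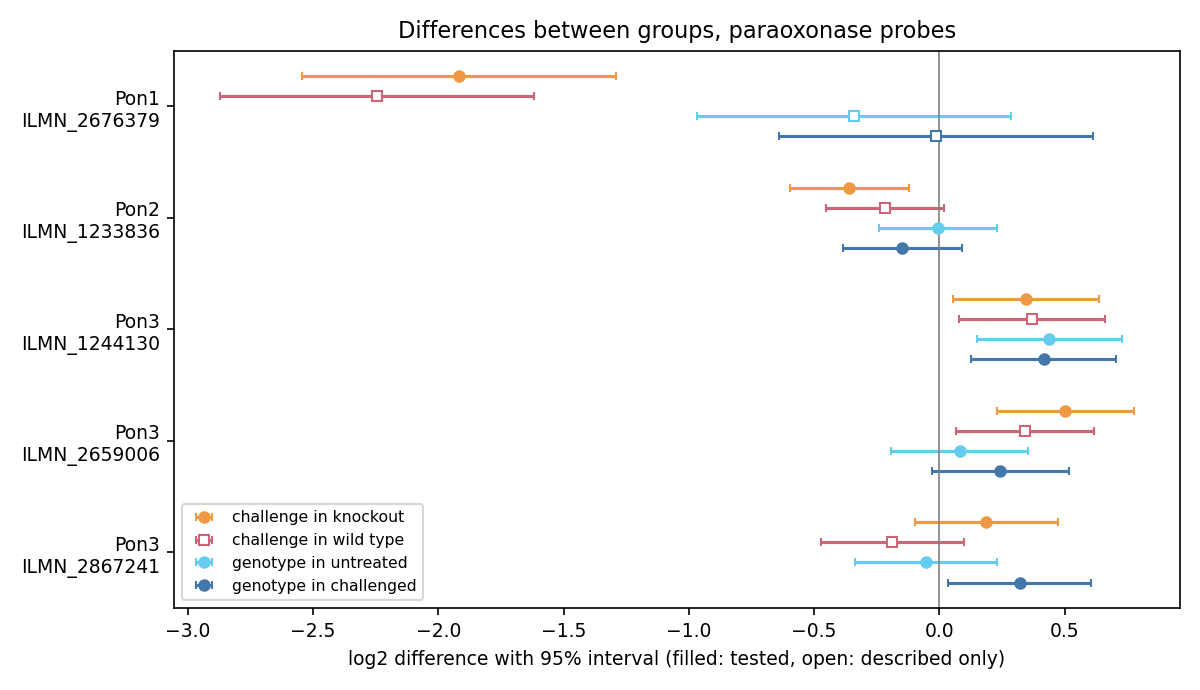
Log2 differences between groups for the 5 paraoxonase probes, with 95% intervals from the limma fit of all 16 arrays (filled circles: tested; open squares: described only). In the knockout, the challenge interval of Pon1 ends at -1.29 and that of Pon2 at -0.12. Those of the 2 brighter Pon3 probes in the knockout lie above 0, although the change of ILMN_1244130 did not pass. Intervals are not adjusted for the number of probes, and wild type challenge values are described without a test.

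Pon2 was somewhat lower in challenged lungs. Its probe (ILMN_1233836) was the brightest of the family's and lay at or above percentile 98.2 of every array. Untreated wild type mice read 2800.5, 2922.6, 2737.2 and 2566.0, and untreated knockout mice 2701.3, 2723.7, 2660.6 and 2891.5. Challenged wild type mice read 2525.5, 2148.1, 2543.7 and 2278.1, and challenged knockout mice 2229.6, 2640.2, 1878.5 and 1884.9. In the knockout the highest challenged mouse, replicate 2, stood just under the lowest untreated one, so that the groups met without overlapping. Over all tested probes, 18.6% were lower in challenged knockout mice without overlap, and 7.48% were called lower. The change was -0.36 ± 0.11 (log2 ± SE; limma, adjusted p = 0.0367), so that the level fell by 22.1%, in 16 of 16 pairs. By size it ranked 4934 among the 17810 probes. The Pon2 call was lost in 7 of the 16 fits without 1 array, each of them a knockout array (adjusted p up to 0.121), and with the replicate number as a block (adjusted p = 0.0529). The corresponding wild type difference, not tested, was -0.22 ± 0.11.

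Genotype made no difference to Pon2 that passed the test. The knockout-minus-wild-type difference was -0.01 in untreated mice (limma, adjusted p = 1; 95% interval -0.24 to 0.23) and -0.15 in challenged mice (adjusted p = 0.282; 95% interval -0.39 to 0.09).  For comparison, 0.0168% of all tested probes were called by genotype in untreated mice and 44.2% in challenged mice.

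Pon3 was higher in challenged lungs on its 2 brighter probes, opposite in direction to its neighbours Pon1 and Pon2. The probe ILMN_2659006 read 273.0, 254.4, 279.7 and 281.5 in untreated wild type, and 284.1, 280.3, 280.1 and 306.4 in untreated knockout lungs. It read 309.7, 329.8, 298.4 and 462.2 in challenged wild type, and 413.5, 479.5, 376.9 and 368.9 in challenged knockout lungs. All challenged knockout mice were above all untreated knockout mice, and the same held within the wild type. Over all tested probes, 14.7% were higher without overlap in the knockout and 10.4% in the wild type. In the knockout 9.1% were called higher. The change in the knockout was 0.50 ± 0.13 (log2 ± SE; limma, adjusted p = 0.0135), or 1.42-fold higher, and the untested one in the wild type 0.34 ± 0.13. The knockout call held in each of the 16 fits without 1 array (adjusted p up to 0.0415) and was lost with cyclic loess between arrays (0.545, adjusted p = 0.0969).

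The probe ILMN_1244130 also stood higher after challenge, by 0.35 ± 0.14 in the knockout, which did not pass (limma, adjusted p = 0.0998) although the groups did not overlap. Among all tested probes, 14.7% were higher in challenged knockout mice without overlap. Untreated knockout mice read 247.9, 278.8, 248.5 and 273.1 on this probe, and challenged knockout mice 377.3, 374.7, 296.8 and 291.8. It passed when the 8 knockout arrays were fitted alone (adjusted p = 0.0335) or when challenged wild type replicate 4 was left out of the shared spread (0.0213). The untested wild type difference was 0.37 ± 0.14, with challenged mice higher in 13 of 16 pairs. The third Pon3 probe, ILMN_2867241, read 52.7 to 86.2, never above the median of its array, and exceeded percentile 40 of the array in 8 of 16 mice. Its change in the knockout, 0.19 ± 0.13, did not pass (adjusted p = 0.389).

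The 2 brighter Pon3 probes did not give the same picture of genotype. On ILMN_1244130 untreated wild type mice read 194.4, 176.2, 203.4 and 199.6, all below the untreated knockout mice. The difference was 0.44 ± 0.14, in 16 of 16 pairs, with an unadjusted p of 0.00561 and an adjusted p of 1 over all probes (limma), so that it did not pass. Groups that did not overlap, with knockout higher, were seen for 2.17% of all probes in untreated mice. On ILMN_2659006 the same comparison gave 0.08 ± 0.13 (limma, adjusted p = 1, 95% interval -0.19 to 0.35). That interval overlaps the one of ILMN_1244130, 0.15 to 0.73, and the difference between the probes was not tested. Whether the probes detect different transcripts of Pon3 was not tested.

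Among challenged mice, ILMN_1244130 was higher in the knockout by 0.42 ± 0.14 (limma, adjusted p = 0.0235), with 14 of 16 pairs in that direction. ILMN_2659006 differed by 0.24 ± 0.13, which did not pass (adjusted p = 0.133; 95% interval -0.03 to 0.52). In this comparison 21.1% of all tested probes were called higher, so 1 call among 3 Pon3 probes is close to the background. Challenged wild type replicate 4 read 189.7 on ILMN_1244130, the lowest of its group, and 462.2 on ILMN_2659006, the highest. Without that array the calls changed places, with 0.28 (adjusted p = 0.0571) for the first probe and 0.38 (adjusted p = 0.00628) for the second. The call of the first was also lost without challenged knockout replicate 1 (adjusted p = 0.0712) or 2 (0.0674). The dim ILMN_2867241 differed by 0.32 ± 0.13, which did not pass (adjusted p = 0.0623). The deviations of the 2 probes from their group means correlated at r = -0.29 over 16 arrays and at r = 0.65 over the 15 others. These are descriptions, and the arrays share their scaling.

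**Figure D3:**
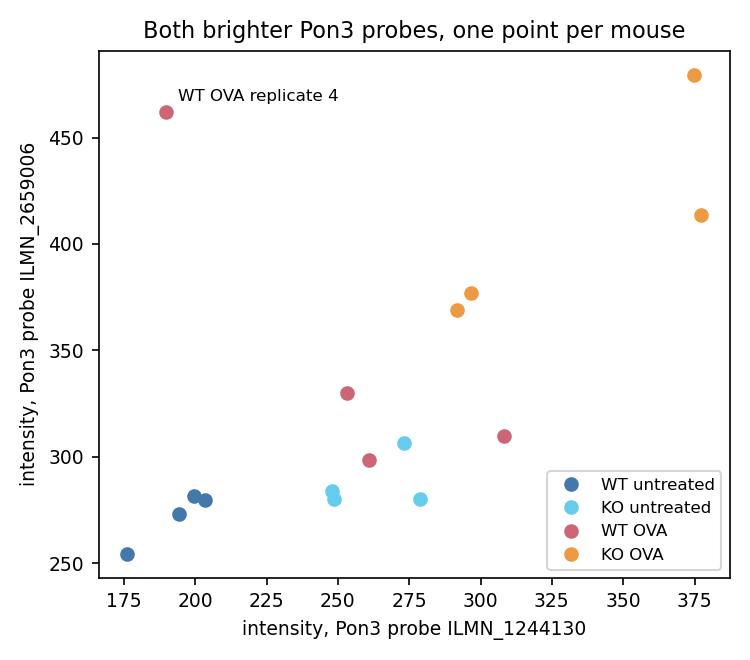
Intensity of both brighter Pon3 probes, with 1 point per mouse and colours for the 4 groups (WT wild type, KO Prdm11 knockout, OVA challenged). Challenged wild type replicate 4, at 189.7 and 462.2, lies away from the other 15 mice. Untreated knockout mice lie above all untreated wild type mice on ILMN_1244130 and overlap them on ILMN_2659006.

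The genes next to the cluster were looked at for the same direction. In the reference annotation, 10 other protein-coding genes lie within 1 Mb on either side, and 8 of them had a tested probe (9 probes). In the knockout, 0 of these probes rose with challenge and 1 fell. This was Ppp1r9a, which encodes the actin-binding protein neurabin and lies directly beside Pon1, at -0.72 ± 0.15 (limma, adjusted p = 0.00451). Over all tested probes, 7.48% were called lower and 9.1% higher in this comparison, so 1 call among 9 probes is close to the background. On the other side of the cluster, Asb4 differed by -0.09 and -0.13 on its 2 probes (adjusted p = 0.725 and 0.478). Pdk4, a pyruvate dehydrogenase kinase, differed by -0.19 ± 0.43 (adjusted p = 0.807), and the imprinted Peg10 by 0.33 ± 0.12 (adjusted p = 0.0656). A wider list of 16 genes around the cluster, of which 14 were tested, had 0 higher and 1 lower, again Ppp1r9a. It shares genes with the window above and is not a separate result.

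**Figure D4:**
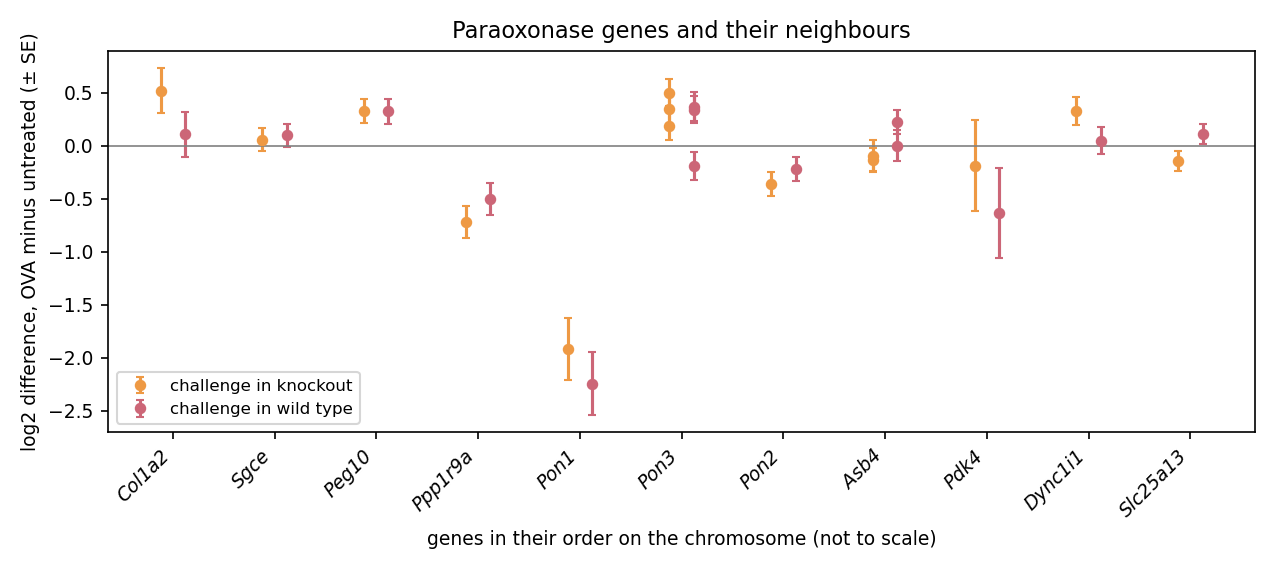
Log2 difference between challenged and untreated lungs (± SE), in knockout and in wild type mice, for each tested probe of the paraoxonase genes and their neighbours, in chromosomal order and not to scale. Pon1 is the lowest, at -1.92 and -2.24, with Ppp1r9a beside it at -0.72 and -0.50, and the brighter Pon3 probes lie above 0.

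Genes that work with paraoxonases or resemble them were read against the 16.6% of all tested probes that were called with challenge in the knockout. Of 15 tested HDL and lipoprotein genes, 1 rose with challenge, 0 fell and 14 did not pass, with a median of 0.10 against -0.05 over all probes. The gene that rose was Saa3, an acute-phase apolipoprotein, at 2.56 ± 0.45 (limma, adjusted p = 0.00106). Its probe was above the 40th percentile on 9 of 16 arrays. The mean log2 level of Saa3 in untreated knockout mice, 6.26, was close to that percentile (6.25), so that the size of the change is uncertain. Apoa1, the main protein of HDL, differed by -0.14 ± 0.22 (adjusted p = 0.704) and the HDL cholesterol esterifying enzyme Lcat by -0.07 ± 0.12 (adjusted p = 0.738). Their mean log2 levels in untreated knockout mice, 6.54 and 6.38, were also not far above that percentile. Of 17 tested lactone, ester and epoxide hydrolases and related enzymes, 4 rose, 2 fell and 11 did not pass, with a median of -0.13. Pla2g7, the platelet-activating factor acetylhydrolase of plasma lipoproteins, rose by 1.27 ± 0.20 (adjusted p = 0.000598), and Ephx2, the soluble epoxide hydrolase, by 1.17 ± 0.21 (adjusted p = 0.0015). Both probes were dim, above the 40th percentile on 6 and 5 of 16 arrays, and their mean log2 levels in untreated knockout mice, 5.87 and 5.81, lay below that percentile, so that the size of these changes is uncertain. The carboxylesterase gene Ces2g fell by 0.83 ± 0.23 (adjusted p = 0.0217). Of 12 tested transcription factors and other regulators that have been named for paraoxonase genes, 0 passed in either direction. The smallest p among them was that of Jun, a subunit of the AP-1 factor, at -0.90 ± 0.32 (adjusted p = 0.0672). Sp1, Ahr (the aryl hydrocarbon receptor), Ppara and Fgfr4 were above the 40th percentile on no array and were not tested, so the result does not cover them.

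Markers of lung and other tissues moved in the same comparison, and their part in the Pon1 difference was not tested. Liver is the main source of Pon1 RNA in the body. Of 18 hepatocyte markers with a probe, 12 were tested, 1 rose in challenged knockout lungs (Arg1, which alternatively activated macrophages also express, with a probe above the 40th percentile on 7 of 16 arrays) and 0 fell. Albumin read 51.9 to 103.6 and was above the 40th percentile on 6 of 16 arrays, and Fgb, Fgg, Apoh, Tat and Itih3 were above it on 0. Other markers were above it on all 16, namely Ahsg (100.5 to 667.1), Serpina1b (79.5 to 176.7), Serpina1c (76.0 to 114.9) and Cyp2e1. Ttr (70.8 to 169.2) was above it on 14. The summed intensity of the list was 1529.9 to 1684.9 in untreated and 1541.5 to 2496.1 in challenged knockout mice. This sum includes dim probes and Cyp2e1, at 138.5 to 987.8, a cytochrome P450 gene that lung also expresses. Of 12 club cell markers 6 fell and 1 rose, and their sum went from 81796.9 to 92280.4 down to 24095.7 to 69045.0. Of 14 alveolar type 1 cell markers 10 fell and 0 rose, with sums of 41412.6 to 46736.9 and then 7581.3 to 25679.7. Of 15 fibroblast and lipofibroblast markers 8 fell and 0 rose (23223.1 to 25799.3, then 10037.0 to 16221.3), and of 19 endothelial markers 16 fell and 0 rose (38584.6 to 42669.9, then 6606.3 to 18738.4). Pon1 thus fell together with several lung cell lists, each without overlap between the groups.

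Of the remaining lists, that of 15 tested lung markers, which shares genes with the lists above, also fell, with 10 lower and 1 higher (median -1.44). Of 20 skeletal muscle markers 18 rose and 0 fell, with sums of 22158.2 to 40374.5 in untreated and 78702.9 to 117799.5 in challenged knockout mice. Of 17 cardiac muscle markers 10 rose and 0 fell, of 14 adipose markers 7 and 0, of 12 macrophage markers 9 and 0, of 11 lymphocyte markers 7 and 0, and of 8 goblet cell markers 7 and 0. Of 17 alveolar type 2 cell markers 1 rose and 2 fell, and of 10 mesothelial markers 1 rose and 0 fell.  With the mean of the skeletal muscle markers as a covariate, the knockout change of Pon1 was -1.83 ± 0.51 and no longer passed (limma, adjusted p = 0.0939), that of Pon2 was -0.17 (0.682) and that of Pon3 on ILMN_2659006 was 0.48 (0.303). The muscle means of the untreated and challenged knockout mice did not overlap, so this covariate follows challenge closely.

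**Figure D5:**
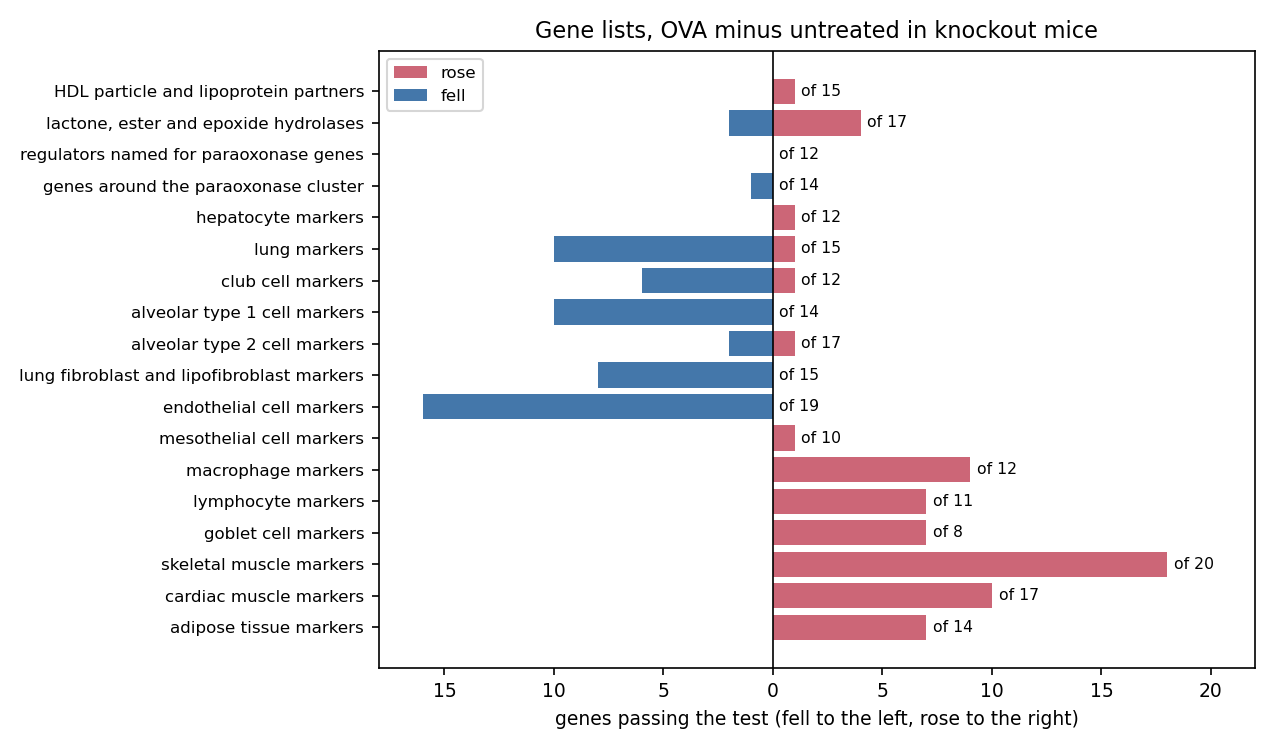
Number of genes of each list that passed the limma test for challenged against untreated knockout mice, lower to the left and higher to the right, with the number tested at the end of each bar. Endothelial, alveolar type 1, fibroblast and club cell markers lie to the left with Pon1, and muscle, macrophage, lymphocyte and goblet cell markers to the right.

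Genes of like pattern were taken as the 6 with the highest Pearson correlation of log2 intensity over the 16 arrays, a measure set here largely by the step between untreated and challenged mice. For Pon1 these were Selenbp1 (r = 0.972), Epas1 (0.963), Acot1 (0.961), Ids (0.960), Rnf44 (0.956) and Smad4 (0.956). Epas1 encodes the hypoxia-inducible factor HIF-2α and Ids the lysosomal iduronate sulfatase. For Pon2 they were Nrbp2 (0.946), Denn2b (0.937), Fads1 (0.921), Nt5e (0.917), Ahnak (0.913) and Nbl1 (0.909). The brighter Pon3 probes shared none of their 6, which were led by Snx17 (0.951) for ILMN_2659006 and Tbc1d22a (0.922) for ILMN_1244130.

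With the group means removed, so that only differences between mice of 1 group counted, the genes most like Pon1 were others. They were Cetn4 (r = 0.940), Ruvbl2 (0.935), Akap14 (0.926), Ift172 (0.919), 6820408C15Rik (0.918) and Eppk1 (0.918). Cetn4 encodes a centrin and Ift172 an intraflagellar transport protein. None of these 6 passed the challenge test in the knockout, with changes from -0.59 (Akap14) to 0.43 (6820408C15Rik), unlike Pon1. For Pon2, Denn2b (0.941) and Nrbp2 (0.856) were among the 6 by both measures. Between members, the deviations of Pon1 correlated with those of Pon2 at r = 0.10 and with those of the brighter Pon3 probes at 0.32 and -0.44, over 16 arrays that share their scaling.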

How the data were processed

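Total RNA of 16 lungs had been measured on 1 bead array each. Each deposited value is the intensity of a probe, not log-transformed. The submitters' processing notes name GenomeStudio 2011.1, and normalization and background treatment are not given in the sources used here. The sorted values of the arrays nearly coincided, so none was normalized again. Values were raised to a floor of 16 (1123 were below it) and put on a log2 scale. The platform annotation gave 1 symbol to 23978 probes and several to 0, and did not list 1719. All 16 arrays were fitted with a mean per group in limma 3.58.1 (R 4.3.3, lmFit and eBayes), with Benjamini-Hochberg adjustment over the 17810 tested probes, and the fit was tested on simulated data. Gene lists used 1 probe per gene, the brightest tested one, and sums 1 probe of every gene with a probe. Genes were named by rule: all members, the 6 most similar genes by each measure, up to 3 called members of a list with the largest change (or the smallest p), and neighbours within 1 Mb. Apoa1, Lcat and the markers albumin and Sftpc were named for their roles. The members and lists were chosen with earlier results of these data known. The mouse reference GRCm38.p6 served for neighbours and promoters. Of 24 same-numbered pairs of mice, 6 had deviations correlated above 0.1 (-0.11 to 0.32). The numbers were not taken to pair the mice, and whether they mark a shared batch was not tested.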

Additional observations from a re-analysis of the deposited data

Results flagged for a closer look

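In untreated knockout mice, replicate 4 read 306.4 on the Pon3 probe ILMN_2659006 while the others read 280.1 to 284.1. On the log2 scale the gap made up 0.842 of the range of the group, above Dixon's critical value at the 95% level for 4 samples. Chance flags about 1 group in 20 by this measure, and 20 groups of member values were examined. Without that mouse the change of this probe with challenge in the knockout still passed, as given above for all fits without 1 array.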

How the results depend on the processing

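The fall of Pon1 in challenged knockout lungs passed in all 16 fits without 1 array and under the other alternatives, except with the skeletal muscle covariate (-1.83). For Pon2 the same comparison lost its call with cyclic loess (-0.27), with the replicate block (-0.36) and with the muscle covariate (-0.17), and fits without 1 array gave -0.46 to -0.30. The replicate block, tried although the numbers were not taken to pair the mice, changed no other member's call. Pon3 on ILMN_2659006 lost its knockout call with cyclic loess (0.545) and the muscle covariate (0.48). On ILMN_1244130 it gained one with the 8 arrays alone (0.35), array weights (0.39) and cyclic loess (0.39), with 0.29 to 0.41 without 1 array.

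For genotype in challenged mice, ILMN_1244130 lost its call with the 8 arrays alone (0.42), array weights (0.34), cyclic loess (0.23) and the muscle covariate (0.41) and in 3 of 16 fits without 1 array (0.28 to 0.52). It reversed to -0.023 with the median of the olfactory, vomeronasal and taste receptor probes as a covariate. With that covariate ILMN_2867241 reversed to -0.11 and Pon1 moved to -1.11. The receptor medians did not overlap between challenged wild type (log2 6.12 to 6.29) and challenged knockout mice (5.94 to 6.02). This covariate therefore follows genotype closely in that comparison. ILMN_2867241 gained a call with cyclic loess (adjusted p = 0.0386), with a trended robust prior (0.0497) and without challenged wild type replicate 1 (0.0347) or 2 (0.0479). ILMN_2659006 gained a call with array weights (0.35) and gave 0.16 to 0.38 without 1 array. For genotype in untreated mice, Pon2 reversed to 0.0094 with the muscle covariate and ran from -0.040 to 0.023 without 1 array, as ILMN_2867241 did from -0.11 to 0.026; no call was made.

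Among untested values, cyclic loess moved the wild type challenge difference of ILMN_1244130 to 0.61 and of ILMN_2659006 to 0.56, and the difference in challenge effects to -0.22 and -0.018. The receptor covariate moved the wild type difference of Pon1 to -1.68 and of ILMN_1244130 to 0.59, and the difference in challenge effects to -0.62 for Pon1, -0.31 for Pon2, -0.40 for ILMN_1244130 and 0.44 for ILMN_2659006.

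The count of probes called with challenge in the knockout, 2954, became 5818 with the 8 arrays alone, 7048 with array weights and 174 with the muscle covariate, and ran from 2095 to 5424 without 1 array, the last without challenged wild type replicate 4. In the wild type, 5244 became 2084 with the 8 arrays alone, 1424 with the muscle and 1263 with the receptor covariate, and 3256 to 6903 without 1 array. By genotype, 7879 in challenged mice became 3336 with the 8 arrays alone and 172 with the receptor covariate, which did not overlap between these groups. The 3 in untreated mice became 13 with the 8 arrays alone, 24 with array weights, 1 with cyclic loess and 1 with the replicate block, and 1 to 4 without 1 array. The cause of these changes was not tested. Slide, scan and background correction could not be examined from the deposited values. The dim ILMN_2867241 limits what can be read from that probe.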
